A study of Mus musculus with 8 samples.

Results

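The genes described here were 7 mouse genes, each of which had a probe set whose level in testis fell into 2 separate levels across arrays without following the genotype. They were Htatip2, Tsc22d1, 9430014N10Rik, Dixdc1, 1810046K07Rik, Fxyd2 and Mpzl2, of 17723 genes that had a probe set matched to 1 gene. They were chosen by these same log2 levels, because of this pattern, so their levels, and the lack of a relation to genotype, are given as a description and carry no test. All 22 probe sets of the 7 genes were examined.

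The RNA came from whole testis of mice at postnatal day 23 and each of 8 samples was read on an Affymetrix Mouse430_2 array of its own. Wildtype is the label of replicates 1, 2, 4, 6 and 7, 5 arrays, and mutant that of replicates 3, 5 and 8, 3 arrays. The mutants carry the Ctcfl del allele, in which exons of Ctcfl, the gene of the testis-specific zinc finger protein CTCFL (BORIS), had been removed by Cre recombinase. The text of the study describes the control animals as heterozygous littermates, and the name in the labels is kept here. The allele was made in embryonic stem cells of a strain other than C57/Bl6, the background on which the mice were kept, and the share of each strain's genome that single animals carried is not given in the sources used here. No agent was given to either group. The targeted gene was not analysed here and could give no check of the labels. The labels name samples but no animals, so an error given here measures the spread between arrays.

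As background, the 7 genes do not belong to one pathway. Htatip2 (also called TIP30) encodes an oxidoreductase-like protein studied as a tumour suppressor. Tsc22d1 encodes a leucine zipper protein that is induced by TGF-beta. Dixdc1 encodes a protein with a DIX domain, the module through which Dishevelled and Axin proteins polymerise in Wnt signalling. Fxyd2 encodes the gamma subunit of the sodium pump and is best known from kidney tubules, and Mpzl2 encodes an immunoglobulin-type adhesion protein of epithelia. 9430014N10Rik is listed by RefSeq as a long non-coding RNA, and no role is given here for 1810046K07Rik. A probe set is a group of short probes that together read one stretch of transcript, so the probe sets of one gene can read different transcript forms, and those whose name ends in x_at can also bind other transcripts.

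Before the levels of single genes, the arrays were compared. Their medians were 6.40 to 6.45 on the log2 scale. Wildtype 7 and mutant 8 stood apart from the other 6 arrays. The mean of 7 spermatid genes was 11.5 on wildtype 7 and 11.0 on mutant 8 and at most 9.31 on the others, while the mean of 4 fat genes was 7.85 and 7.84 against at most 6.30. The mean of 5 spermatocyte genes lay between 10.5 and 10.7 and that of 7 Sertoli cell genes between 8.91 and 9.13. These means varied by 0.16 and 0.21 over the arrays. The mean of 4 genes of kidney epithelium stayed between 4.48 and 4.66. The gaps of the members, their genotype differences where these moved, the counts over genotype and those on chromosome 9 are therefore also given without wildtype 7 and mutant 8.

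A probe set was said to have 2 levels when its 8 values, once sorted, left a gap of at least 1 on the log2 scale, which is 2-fold, with at least 2 arrays on each side. The arrays above and below the gap are called the split. By this rule 198 of 45101 probe sets, 0.439%, had 2 levels. Of these, 168 parted wildtype 7 and mutant 8 from the rest, and 30 had one of 18 other splits. The split between the 5 wildtype and the 3 mutant arrays was held by 0 of them, and by 0 of the 807 probe sets (1.79%) with a gap of at least 0.5. Each of the 7 genes had 1 probe set among the 30. Their gaps ran from 1.11 for Mpzl2 to 3.16 for Htatip2, and the largest gap among the 15 other probe sets of these genes was 0.75.

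Where in the genome the 7 genes lie bears on what follows. Dixdc1, 1810046K07Rik, Fxyd2 and Mpzl2 are on chromosome 9, Htatip2 on chromosome 7, Tsc22d1 on chromosome 14 and 9430014N10Rik on chromosome 15. Windows around annotated transcript starts, 250 bases before and 50 bases after, were taken from RefSeq (GRCm38.p6) for 5 of the 7 genes, 12 windows in all. Those of Dixdc1 and 1810046K07Rik are shown because a probe set of each divided the arrays identically but in opposite directions, and one of Htatip2 because its gap was the largest. Each is written 5′ to 3′ on the strand of its gene, with GGGCGG or its reverse complement in capitals.
Dixdc1, upstream start, chr9:50737686-50737985, minus strand: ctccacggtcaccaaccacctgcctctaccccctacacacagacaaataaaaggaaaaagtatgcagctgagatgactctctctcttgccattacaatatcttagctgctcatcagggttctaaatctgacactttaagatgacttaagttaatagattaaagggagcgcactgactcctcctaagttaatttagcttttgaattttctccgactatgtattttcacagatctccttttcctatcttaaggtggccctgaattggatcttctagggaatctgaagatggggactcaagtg
Dixdc1, downstream start, chr9:50727935-50728234, minus strand: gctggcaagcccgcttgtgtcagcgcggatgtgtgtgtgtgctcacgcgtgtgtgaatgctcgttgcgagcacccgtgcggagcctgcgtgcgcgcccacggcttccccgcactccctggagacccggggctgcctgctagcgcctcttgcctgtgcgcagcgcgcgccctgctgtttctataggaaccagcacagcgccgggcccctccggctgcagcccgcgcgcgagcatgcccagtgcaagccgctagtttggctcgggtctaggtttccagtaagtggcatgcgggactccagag
1810046K07Rik, upstream start, chr9:51328869-51329168, minus strand: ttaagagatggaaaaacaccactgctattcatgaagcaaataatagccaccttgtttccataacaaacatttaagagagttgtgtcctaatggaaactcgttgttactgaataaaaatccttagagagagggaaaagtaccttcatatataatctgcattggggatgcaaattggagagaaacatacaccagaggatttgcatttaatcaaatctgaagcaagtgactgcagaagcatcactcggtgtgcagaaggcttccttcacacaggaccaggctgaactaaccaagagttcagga
1810046K07Rik, downstream start, chr9:51312620-51312919, minus strand: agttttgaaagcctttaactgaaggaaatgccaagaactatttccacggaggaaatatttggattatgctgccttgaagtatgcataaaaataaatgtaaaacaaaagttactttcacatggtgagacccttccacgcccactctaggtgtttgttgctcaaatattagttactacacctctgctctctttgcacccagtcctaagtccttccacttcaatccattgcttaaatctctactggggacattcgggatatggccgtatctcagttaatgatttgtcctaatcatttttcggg
Htatip2, upstream start, chr7:49758856-49759155, plus strand: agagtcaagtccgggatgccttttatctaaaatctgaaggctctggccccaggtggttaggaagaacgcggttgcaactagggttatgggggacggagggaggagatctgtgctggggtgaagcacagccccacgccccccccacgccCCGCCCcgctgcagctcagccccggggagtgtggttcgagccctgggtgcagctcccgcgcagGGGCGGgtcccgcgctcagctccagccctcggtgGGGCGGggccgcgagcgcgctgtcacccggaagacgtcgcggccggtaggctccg

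The 2 starts of Dixdc1 differ in composition, with 41.7% G and C in the upstream window and 67.7% in the downstream one. Both windows of 1810046K07Rik held 39.7%, and the Htatip2 window shown held 69.0%. The strings below were searched on both strands: the TATA box TATAAA, the GC box GGGCGG, the cyclic AMP response element TGACGTCA and AGGGGGC, a run of letters within the CTCF motif that can overlap a GC box. Over all 32851 windows of the table they were found in 13.6%, 35.7%, 1.79% and 10.6%, respectively. The Htatip2 window shown held GGGCGG 3 times, and the Dixdc1 and 1810046K07Rik windows held none of these strings. The downstream window of Htatip2, which is not shown, had 61.0% G and C and held none of them either. The deposited files do not place the probe sets on the genome. It is therefore not known which start, if either, a given probe set of Htatip2, Dixdc1 or 1810046K07Rik follows.

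Htatip2 had the widest gap of the 7 genes. On wildtype 1, 2, 4, 6 and 7 the levels of probe set 1451814_a_at were 9.13, 9.07, 5.91, 5.69 and 5.70, and on mutant 3, 5 and 8 they were 9.30, 5.87 and 9.20. Thus 2 wildtype and 2 mutant arrays were high and 3 wildtype and 1 mutant array were low, with 3.16 between the levels, or 8.95-fold. Within the high and the low level the arrays spread over 0.22 and 0.21. The low arrays placed this probe set below the array medians. The same held for the probe set with 2 levels of each other member, whose low arrays read at most 5.81. In Fxyd2 the high level too, 6.44 to 6.67, was near the array medians. No detection call was used here, so it was not tested whether any of these levels lies above background. The other probe set of the gene, 1454227_at, lay between 5.46 and 6.16 with a largest gap of 0.05 and did not divide these arrays.

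**Figure D1:**
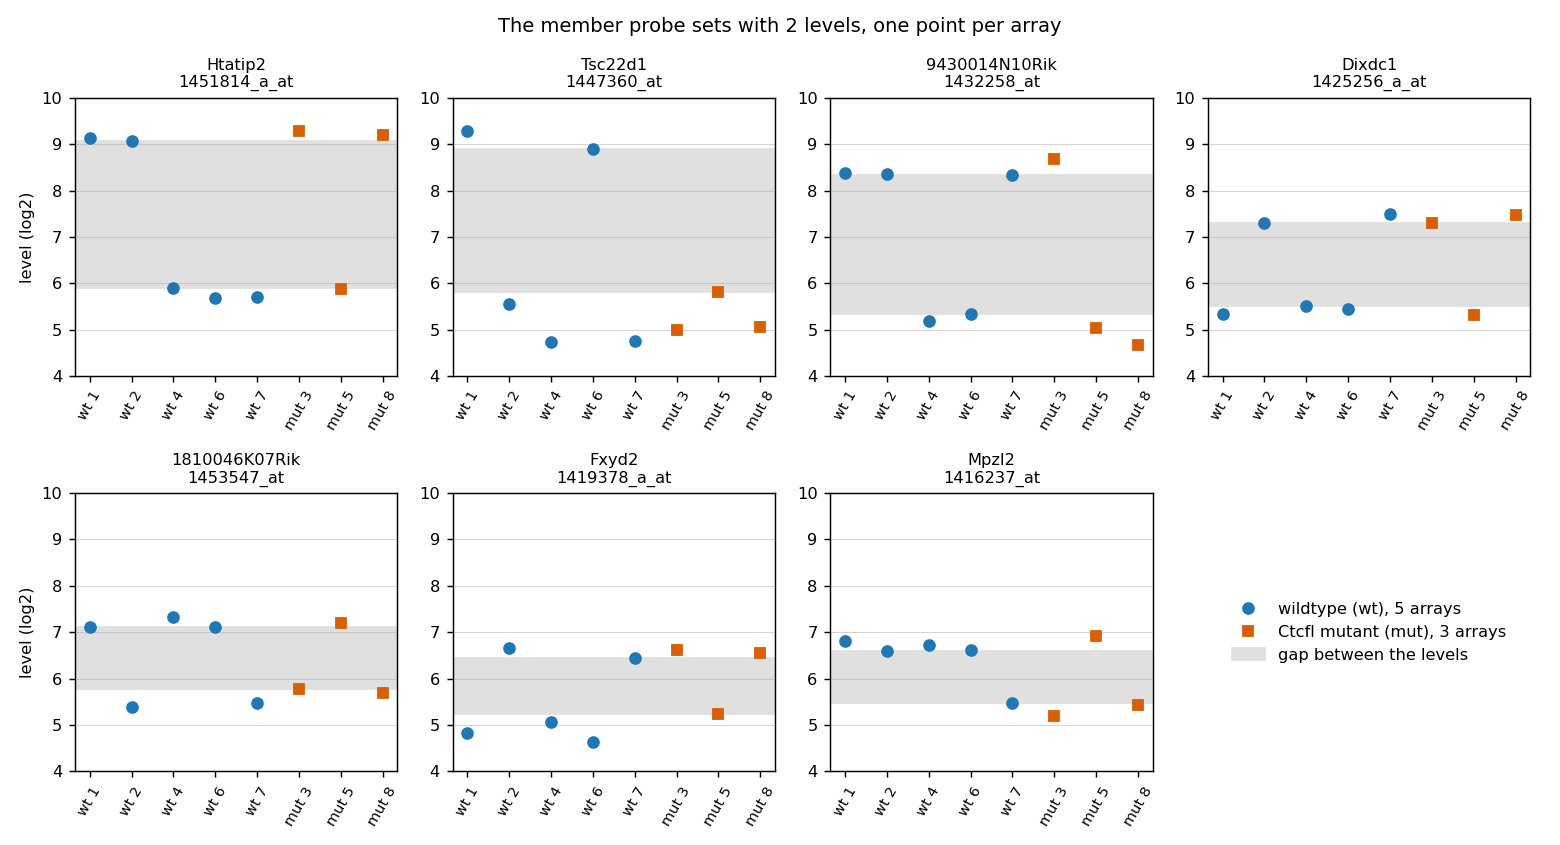
Log2 level (vertical axis) on each of the 8 arrays (horizontal axis, wt wildtype, mut mutant) for the probe set with 2 levels of each of the 7 genes, with 1 point per array and the gap shaded. Arrays of both genotypes lie above and below the shaded gap in 6 genes, and in Tsc22d1 the high arrays are wildtype 1 and 6.

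Tsc22d1 was the exception in which the high level held no mutant array. Its probe set 1447360_at read 9.29, 5.56, 4.73, 8.90 and 4.76 on the wildtype arrays, in the same order, and 5.00, 5.81 and 5.07 on the mutant arrays. Only wildtype 1 and 6 were high, and the other 3 wildtype arrays lay among the mutants, 3.09 or more below. The low arrays spread over 1.08, the high ones over 0.40. Of the 6 other probe sets of Tsc22d1, 1439111_at was lowest on the same 2 arrays, at 7.73 and 7.64 on wildtype 1 and 6 against 8.03 to 8.67 on the others, a gap of 0.30 in the opposite direction. The remaining 5 probe sets had gaps of 0.02 to 0.11, and on them wildtype 1 and 6 overlapped with the other arrays. Most of the probe sets of this gene therefore showed no trace of the split.

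The long non-coding RNA 9430014N10Rik was read by 1432258_at alone. Its levels were 8.38, 8.37, 5.18, 5.35 and 8.34 on the wildtype arrays and 8.67, 5.03 and 4.66 on the mutant arrays. Wildtype 1, 2 and 7 and mutant 3 were high, 2.99 above the other 4. Htatip2 had also been high on wildtype 1 and 2 and mutant 3, but mutant 8 and wildtype 7 changed places between these genes.

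Dixdc1 divided the arrays in yet another way. Probe set 1425256_a_at gave 5.35, 7.30, 5.51, 5.45 and 7.50 on the wildtype arrays and 7.30, 5.33 and 7.48 on the mutant arrays. Wildtype 2 and 7 and mutant 3 and 8 were high and the other 4 low, with a gap of 1.79 and spreads of 0.20 and 0.19 within the levels. On the 3 other probe sets of the gene the same 4 arrays were the lower ones. For 1443957_at the levels were 7.10, 6.30, 7.05, 7.34 and 6.18 on the wildtype arrays and 6.15, 7.30 and 6.16 on the mutant arrays, a gap of 0.75. For 1444395_at they were 8.33, 7.09, 8.30, 8.47 and 7.55 on the wildtype arrays and 7.30, 8.43 and 7.60 on the mutant arrays, a gap of 0.70. On 1435207_at these 4 arrays also lay below the rest, by 0.14, but its widest gap, of 0.15, fell elsewhere and left wildtype 7 among the high arrays. Thus 3 probe sets of Dixdc1 had this split as their widest gap, 1 in one direction and 2 in the other.

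1810046K07Rik, with 10 measured genes between it and Dixdc1 on chromosome 9, had the same split as Dixdc1 1425256_a_at with the direction turned. Its probe set 1453547_at read 7.11, 5.38, 7.33, 7.12 and 5.47 on the wildtype arrays and 5.79, 7.20 and 5.69 on the mutant arrays. Wildtype 1, 4 and 6 and mutant 5 were high, with a gap of 1.32. The 2 levels spread over 0.22 and 0.40.

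Fxyd2 was high on the arrays on which Dixdc1 1425256_a_at was high. Probe set 1419378_a_at read 4.82, 6.67, 5.06, 4.63 and 6.44 on the wildtype arrays and 6.62, 5.24 and 6.54 on the mutant arrays, with a gap of 1.20. The gap of 1456601_x_at was 0.72 and that of 1419379_x_at 0.49, with the same 4 arrays high on both. The fourth probe set, 1449883_at, stayed between 4.70 and 4.87 on all arrays and divided nothing. No marker gene of kidney epithelium was above the array median.

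Mpzl2 differed from these 3 genes in a single array. On 1416237_at the levels were 6.81, 6.59, 6.72, 6.62 and 5.48 on the wildtype arrays and 5.20, 6.92 and 5.43 on the mutant arrays. Wildtype 7 and mutant 3 and 8 were low by 1.11 or more, and wildtype 2, which went with them in Dixdc1, Fxyd2 and 1810046K07Rik, was the lowest of the high arrays. The same 3 arrays were low on 1416236_a_at, with a gap of 0.55, and on 1448265_x_at, with a gap of 0.41, so that all 3 probe sets divided the arrays alike.

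**Figure D2:**
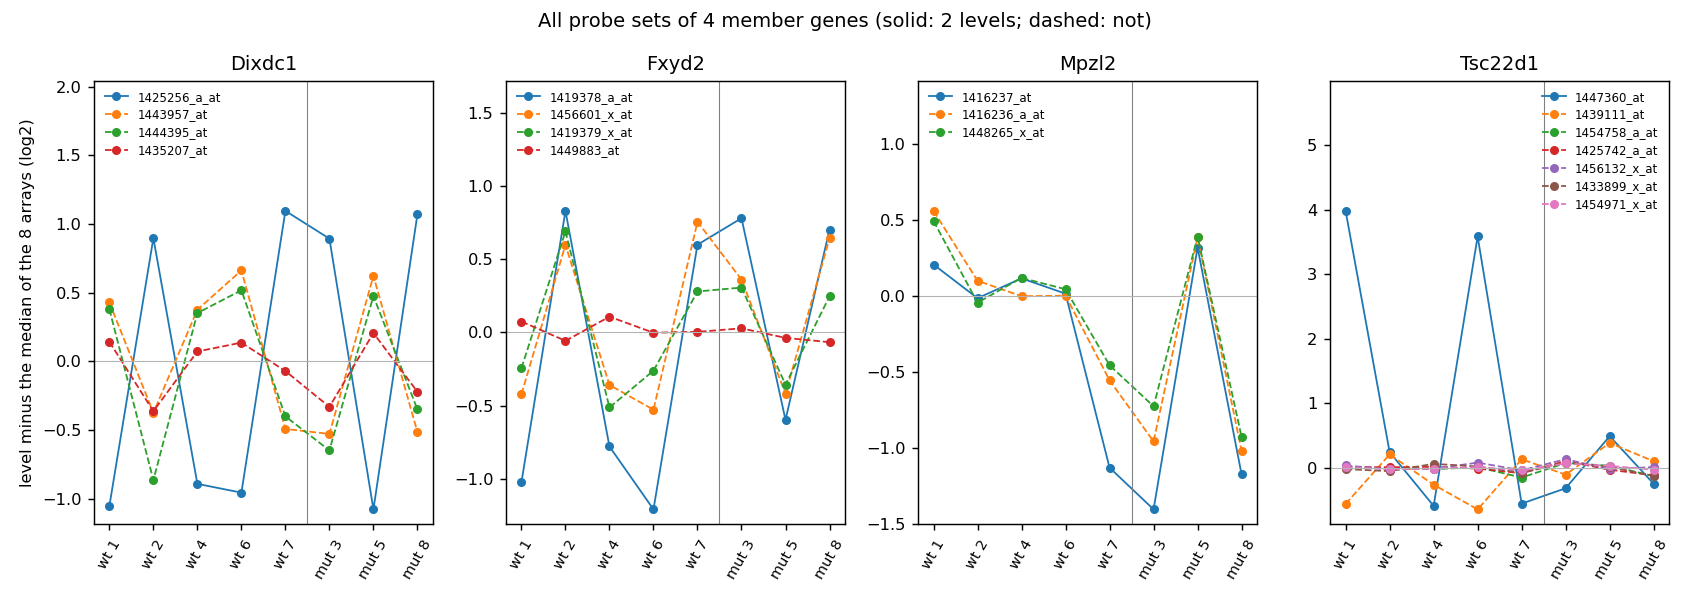
Log2 level minus the median of the 8 arrays (vertical axis, a scale of its own in each panel) on each array (horizontal axis, wildtype left and mutant right of the vertical line) for each probe set of Dixdc1, Fxyd2, Mpzl2 and Tsc22d1. The line of Dixdc1 1425256_a_at mirrors those of the 3 other Dixdc1 probe sets, Fxyd2 and Mpzl2 have 3 lines each that move together, and 5 of the 7 lines of Tsc22d1 are nearly flat.

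The 7 probe sets had 5 distinct splits, since Dixdc1, Fxyd2 and 1810046K07Rik shared one. Without wildtype 7 and mutant 8, 6 of the 7 still had 2 levels, with gaps of 3.16 for Htatip2, 3.09 for Tsc22d1, 3.02 for 9430014N10Rik, 1.79 for Dixdc1, 1.32 for 1810046K07Rik and 1.38 for Fxyd2. Mpzl2 1416237_at then had mutant 3 as its single low array, 1.39 below the rest, and no longer met the rule. In whole testis, fewer cells of a type and less RNA per cell cannot be told apart. The split of Dixdc1 was not found in the mean of any of 12 lists of marker genes, since on each list the 2 sets of arrays overlapped. Among the lists were those for spermatogonia, spermatocytes, spermatids, Sertoli, Leydig and peritubular cells, macrophages, endothelium and fat. Only 2.35% of all probe sets kept these arrays apart, so overlap on each list decides nothing about cell content, which was not tested.

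For the genotype comparison, which had served to choose the genes, each member is given as mean ± SD over 5 wildtype and 3 mutant arrays. Htatip2 had 7.10 ± 1.83 and 8.12 ± 1.95, Tsc22d1 1447360_at 6.65 ± 2.26 and 5.29 ± 0.45, and 9430014N10Rik 7.12 ± 1.70 and 6.12 ± 2.22. On chromosome 9, Dixdc1 1425256_a_at had 6.22 ± 1.08 and 6.70 ± 1.19, 1810046K07Rik 6.48 ± 0.97 and 6.22 ± 0.85, Fxyd2 1419378_a_at 5.52 ± 0.96 and 6.13 ± 0.77, and Mpzl2 1416237_at 6.44 ± 0.55 and 5.85 ± 0.93. The mutant minus wildtype differences ran from -1.36 (SE 1.07) in Tsc22d1 to 1.02 (SE 1.07) in Htatip2. Single arrays moved them by more than 1.5 times, the difference of Htatip2 being 0.43 without mutant 3, 0.48 without mutant 8 and 2.15 without mutant 5. That of 9430014N10Rik was -2.28, -0.27 and -0.46 without the same arrays. Over the arrays left out and the other limma settings, Tsc22d1 1447360_at ranged from -1.84 to -0.69, Dixdc1 1425256_a_at from 0.09 to 1.16, 1810046K07Rik from -0.75 to 0.01, Fxyd2 1419378_a_at from 0.37 to 1.06 and Mpzl2 1416237_at from -1.13 to -0.27. Without wildtype 7 and mutant 8 the difference was 0.13 in Htatip2 and 0.03 in 9430014N10Rik. The genotypes overlapped on all 22 member probe sets. Of all probe sets only 2.70% did not overlap, and the genes were chosen as unrelated to genotype, so the overlap does not set the members apart. Over all 45101 probe sets limma called 0, or 0.00%, different between the genotypes at an adjusted p under 0.05 and 1564, or 3.47%, at an unadjusted p under 0.05. A one-way comparison without a shared prior called 0 after adjustment and 1708 before it. Without mutant 8 limma called 0 after adjustment and 2649 before it, and without wildtype 7 and mutant 8 it called 0 and 2956.

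Relatives of the members were read for comparison. Of 21 other genes of the DIX domain, FXYD, TSC22 domain and sodium pump lists, 0 of 44 probe sets had 2 levels and limma called 0 of them after adjustment and 2 before it. The median mutant minus wildtype difference was -0.01 for the DIX domain list, -0.04 for the FXYD family, 0.02 for the TSC22 domain list and 0.03 for the sodium pump. The largest gap within each list was 0.13 for Ccdc88c, 0.21 for Fxyd6, 0.52 for Tsc22d4 and 0.92 for Atp1a4, the alpha subunit of sperm. In the last 2 the high arrays were wildtype 7 and mutant 8, on which the spermatid genes were high too, and the part of spermatid content in them was not tested.

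It was then asked whether the neighbours of each gene shared its split. Among the 10 nearest measured genes on each side of each member, 0 had a probe set with 2 levels and the same split, against 0.0282% of all genes for the split of Dixdc1, Fxyd2 and 1810046K07Rik and 0.00564% for each of the other splits, where the member itself was the single gene. The genes right next to the members were read on their main probe sets first. The members' splits overlapped on the main probe sets of Dbx1 and Prmt3 beside Htatip2, Nufip1 and 4930444M15Rik beside Tsc22d1, Prickle1 and Adamts20 beside 9430014N10Rik, Pou2af1 and Arhgap20 beside 1810046K07Rik, Fxyd6 and 4833428L15Rik beside Fxyd2, and Cd3e and Mpzl3 beside Mpzl2. Next to Dixdc1 the main probe set of Dlat overlapped too, whereas another of its probe sets, 1452005_at, was lower on wildtype 2 and 7 and mutant 3 and 8 by 0.34. On the other side 2310030G06Rik was higher on these arrays by 0.09.

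Smaller gaps with the same split were found around Dixdc1. Of the 32 probe sets of its 20 nearest genes, 11 kept the 4 arrays apart, where 2.35% of all probe sets did, and 5 did so by at least 0.2, in Alg9, Bco2, Dlat, Hoatz and Sik2. Alg9, which adds mannose in the assembly of N-glycans, read 8.65, 9.59, 8.39, 8.58 and 9.65 on the wildtype arrays and 9.68, 8.65 and 9.59 on the mutant arrays, a gap of 0.93 in the direction of Dixdc1 1425256_a_at. It was the single gene in the windows with a gap of at least 0.5, a size that 10 of 17723 genes (0.0564%) had with this split, and that 0.0339% had with the split of Mpzl2, 0.0113% with that of Htatip2 and 0.00564% with each of the others. Around Fxyd2 the arrays were apart by at least 0.2 in Cep164 and Sik3. Around Htatip2 they were so in Slc17a6, a vesicular glutamate transporter, of which 2 probe sets were lower on the arrays with high Htatip2 by 0.45 and 0.41. Around Tsc22d1, 9430014N10Rik and Mpzl2 the largest gaps with the member's split were 0.04, 0.07 and 0.13.

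The whole of chromosome 9 was then read for the split of Dixdc1, a step chosen after the windows had been seen. Of all probe sets, 2.35% kept wildtype 2 and 7 and mutant 3 and 8 apart from the other 4 arrays. On chromosome 9 this share was 97 of 1812, or 5.35%, and on the other chromosomes 2.08%. With a gap of at least 0.2 there were 37 probe sets with a known chromosome, 32 of them on chromosome 9, which holds 5.40% of the probe sets, and the next chromosome, 18, had 2. A gap of at least 0.5 was found in 0.0421% of all probe sets, 13 of them with a known chromosome, of which 12 were on chromosome 9. Without wildtype 7 and mutant 8, when 6 arrays were left, the remaining arrays were kept apart by 15.8% of the probe sets of chromosome 9 and 11.3% of the others, and 37 of 79 probe sets with a gap of at least 0.2 were on chromosome 9. No test is attached to these counts, because the split was taken from 3 genes of the same chromosome, and probe sets of 1 gene are not independent.

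**Figure D3:**
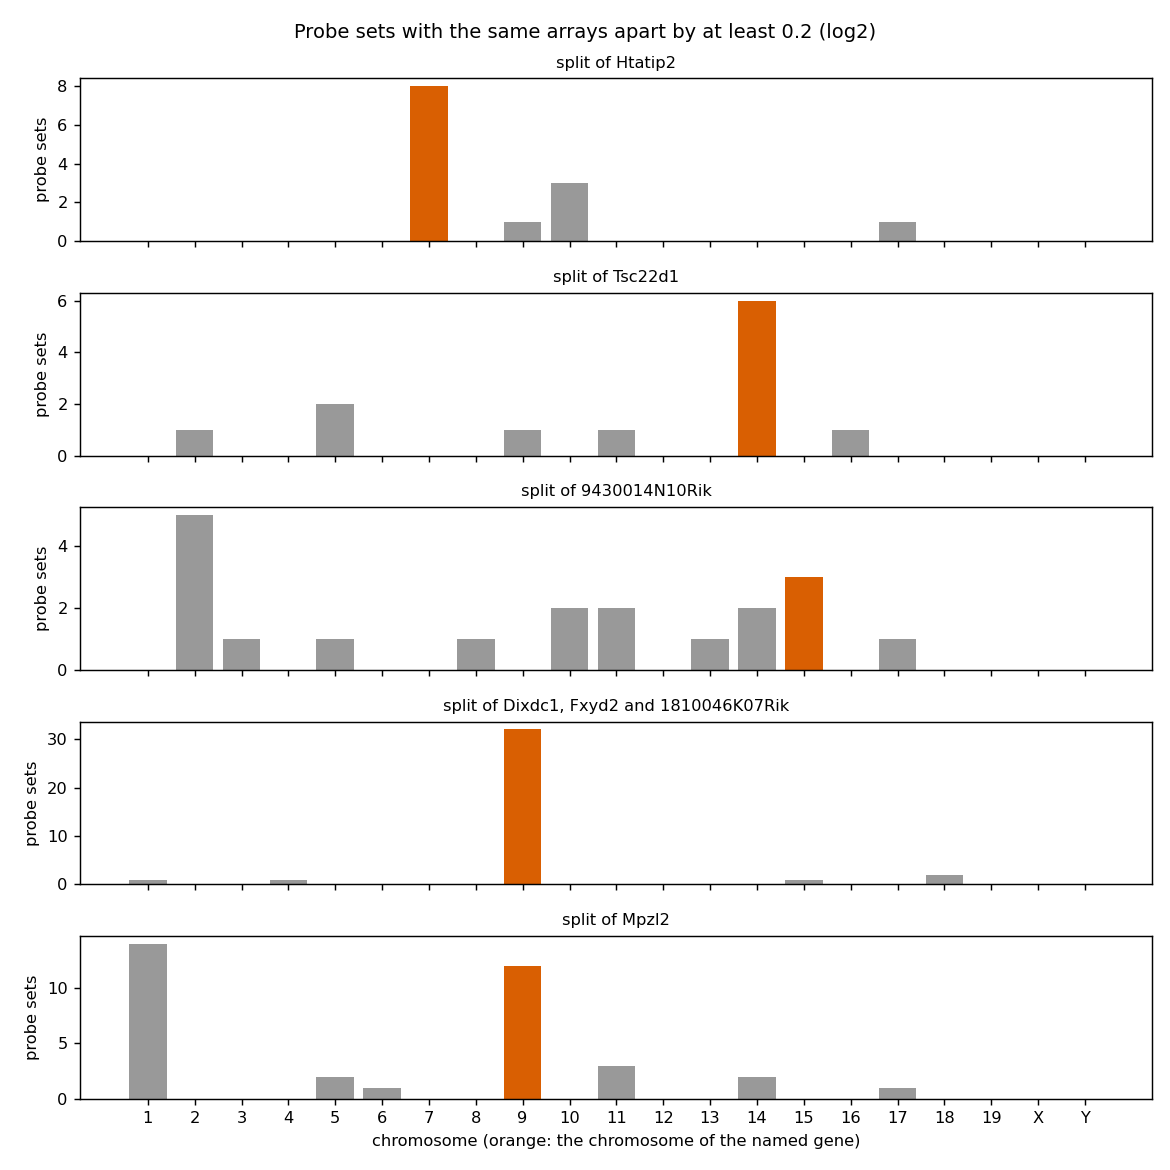
Number of probe sets (vertical axis) on each chromosome (horizontal axis) that kept the arrays of a member's split apart by at least 0.2 on the log2 scale, 1 panel per split, with the member's own chromosome in orange. For the split of Dixdc1, Fxyd2 and 1810046K07Rik 32 of 37 are on chromosome 9, and for that of Htatip2 8 of 13 are on chromosome 7.

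The 32 probe sets on chromosome 9 were not spread along it. They belonged to 25 genes, which all lay in one run of 195 of the 970 measured genes (20.1%), from Clmp to Sema7a. Inside this run 61 of 355 probe sets (17.2%) kept the arrays apart, and outside it 36 of 1457 (2.47%), none of those by more than 0.17. Without wildtype 7 and mutant 8 these shares were 31.3% inside and 12.1% outside. The share inside includes the member probe sets that gave the split. The run was bounded by the outermost of the 25 genes. Its first and last gene therefore follow from the choice, as does the absence of gaps of at least 0.2 outside the run. The run held all 4 members on chromosome 9 in the order Mpzl2, Fxyd2, Dixdc1 and 1810046K07Rik, with 7, 46 and 10 measured genes between neighbours.

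**Figure D4:**
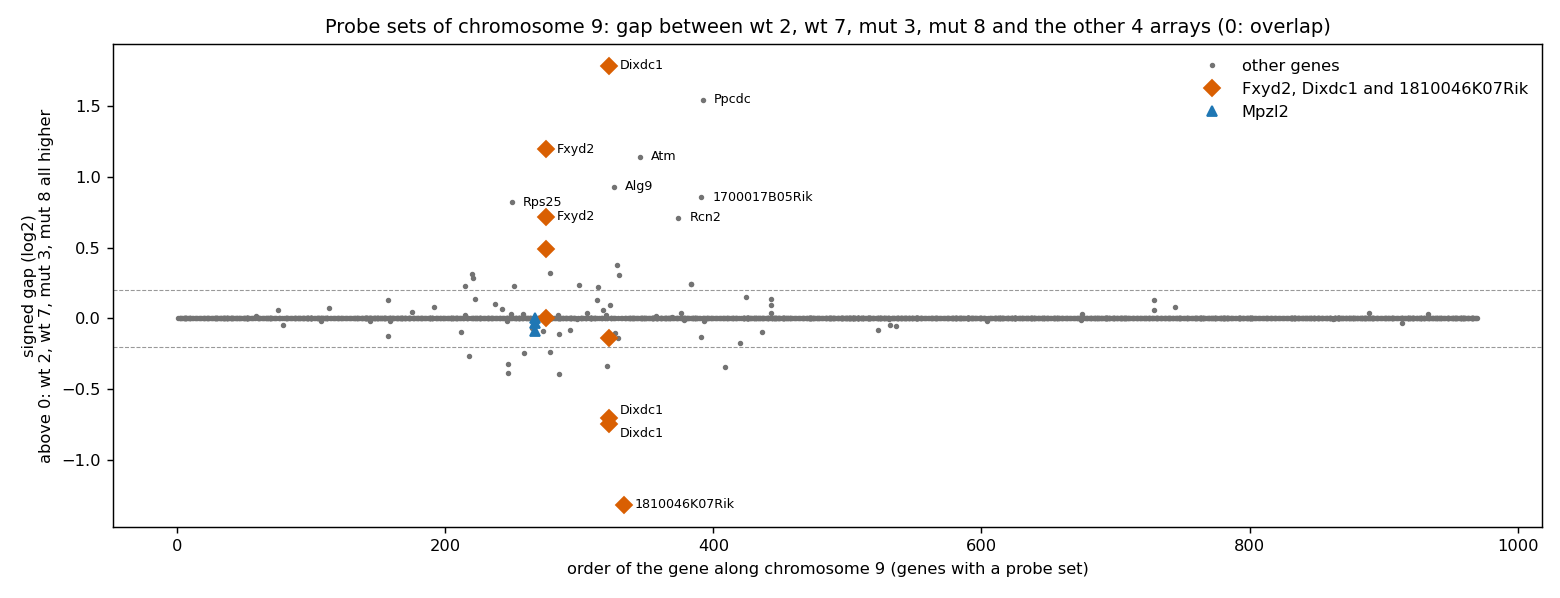
Gap on the log2 scale (vertical axis) between wildtype 2 and 7 and mutant 3 and 8 and the other 4 arrays for each of 1812 probe sets, against the order of the gene along chromosome 9 (horizontal axis), with positive values where these arrays were higher and 0 where the sets of arrays overlapped. Dashed lines mark 0.2 in either direction, and the 32 probe sets beyond them lie between the genes at positions 215 and 409.

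Within the run the direction differed from gene to gene, with 21 probe sets higher and 11 lower on wildtype 2 and 7 and mutant 3 and 8. Apart from the members, 22 genes were represented by 25 probe sets. The widest was Ppcdc, an enzyme of coenzyme A synthesis, which read 4.90, 7.15, 4.51, 5.29 and 6.96 on the wildtype arrays and 6.88, 5.33 and 7.03 on the mutant arrays, a gap of 1.55. Atm, the kinase that responds to DNA double-strand breaks, read 7.25, 8.76, 6.71, 6.97 and 8.60 on the wildtype arrays and 8.78, 7.46 and 8.62 on the mutant arrays, a gap of 1.14. Both were high on the arrays with high Dixdc1 1425256_a_at. So were 1 probe set each of 1700017B05Rik by 0.86, the ribosomal protein gene Rps25 by 0.82 and the reticulocalbin gene Rcn2 by 0.71. That of Rcn2 read at most 5.64, below the array medians. Ppcdc and Atm were likewise read on 1 probe set each, and any other probe sets of these genes are not described here. Lower on these arrays were the chaperone Hyou1, by 0.39 and 0.33 on 2 probe sets, the kinase Sik3 by 0.40, the semaphorin Sema7a by 0.34 and Dlat, a subunit of pyruvate dehydrogenase, by 0.34. Of the genes with 2 such probe sets, Hyou1 and Snupn moved one way on both, while Cep164, a protein of the centriole, was higher by 0.32 on one and lower by 0.24 on the other, as Dixdc1 had been. A probe set with no gene name here, 1459187_at, had the same split with a gap of 1.46.

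The split of Mpzl2 gave another distribution. With a gap of at least 0.2 it was held by 36 probe sets with a known chromosome, 12 on chromosome 9 and 14 on chromosome 1. The 9 on chromosome 9 that were not of Mpzl2 were of 8 genes, Ccdc159, Zbtb44, Scn3b, Sorl1, C2cd2l, Hyou1, Rps25 and Rcn2. Those of Hyou1, Rps25 and Rcn2 also kept the arrays of the Dixdc1 split apart by at least 0.2, the others by less, and that of Sorl1 not at all. Another probe set of Sorl1, 1426258_at, did keep the arrays of the Dixdc1 split apart, by 0.28. On chromosome 1 the interferon-inducible genes Ifi204 and Ifi203 led, with gaps of 0.93 in the direction of Mpzl2 and 0.82 in the opposite direction.

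For the splits of the genes on other chromosomes the counts were smaller. The split of Htatip2 was held, at a gap of at least 0.2, by 13 probe sets with a known chromosome, 8 of them on chromosome 7, which holds 7.12% of the probe sets. Beside Htatip2 these were 2 of Slc17a6, 5 measured genes away, and those of Mphosph10, St8sia2, Arnt2, Dlg2 and Fam181b, 40 to 192 measured genes away, all on the same side of Htatip2. Their gaps ran from 0.22 to 0.45, against 3.16 in Htatip2 itself. The split of Tsc22d1 was held by 12, of which 6 were on chromosome 14 (3.48% of the probe sets), 2 of them of Tsc22d1 and the others of Rcbtb2, 4930434J06Rik, Adamdec1 and Cfap20dc. The split of 9430014N10Rik was held by 19, of which 3 were on chromosome 15 (4.03%), those of 9430014N10Rik, Cers5 and C9, while chromosome 2 had 5. Most like 9430014N10Rik in its split were 2 probe sets of Svs5, a seminal vesicle secretion gene on chromosome 2, with gaps of 0.48 and 0.46. Most like Htatip2 among genes with a known chromosome was AY702103 on chromosome 17, with a gap of 0.60 in the opposite direction.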

How the data were processed

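The 8 arrays (Affymetrix Mouse430_2) read testis RNA of postnatal day 23. According to the labels and methods, the authors used RMA background correction and quantile normalisation and deposited log2 levels. The annotation build is not given in the sources used here. The authors' comparison columns (differences, fold values, p-values and limma output) were not used. The 7 genes and the lists of relatives and markers were chosen with earlier results of these data known.

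Levels were used as deposited for 45101 probe sets, of which 64 were controls. Entrez IDs were given for 38810, and 33565 matched 1 gene of RefSeq (GRCm38.p6), from which only names, chromosomes and gene order were taken, beside the printed windows. A gap was sought among sorted values with at least 2 arrays on each side, and a neighbour was one of 10 measured genes on either side. The main probe set had no s or x suffix where possible, then the highest mean level. Named were the members, their nearest genes, genes sharing a split, up to 5 of the widest gap per split, and the widest of each list of relatives. Genotypes were compared with limma 3.58.1 (R 4.3.3), two-sided, Benjamini-Hochberg adjusted over all probe sets, and the remaining steps used Python 3.11.15. Both were tested on simulated data. Hormad1, Insl3 and Plin1 of the marker lists had no probe set, and 1 list of relatives is not reported here. The number of arrays limits the precision. Alternatives covered scaling, thresholds, windows, each array left out and other limma settings. Added after the data had been seen were leaving out wildtype 7 with mutant 8 and reading whole chromosomes for a fixed split, with all arrays and without this pair.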

Additional observations from a re-analysis of the deposited data

Results flagged for a closer look

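Among the wildtype arrays, 3 of the 22 member probe sets had 1 array farther from the other 4 than Dixon's criterion allows. Chance flags about 1 in 20 groups, but these probe sets were chosen for gaps between arrays and share genes, so that rate is no reference for them. In each the array was wildtype 7. It read 12.23 on Tsc22d1 1454758_a_at, against 12.36 or more on the others, and 12.21 on Tsc22d1 1425742_a_at, against 12.28 or more. It read 5.48 on Mpzl2 1416237_at, against 6.59 or more, the gap by which that gene was chosen. Mutant 8, on which the spermatid and fat genes were high as on wildtype 7, read 12.26, 12.17 and 5.43 on these probe sets, and the part of that content in the values was not tested.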

How the results depend on the processing

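No paired analysis was possible because the wildtype and mutant titles share no replicate number. The number of probe sets with 2 levels rested on wildtype 7 and mutant 8: it was 198 with all arrays, 30 without wildtype 7, 32 without mutant 8 and 27 without both, and it ran from 30 to 223 over the arrays left out singly. It was 87 with an offset of 64 on the linear scale, 807 and 65 at gaps of 0.5 and 1.5, 22 with at least 3 arrays on each side, 92 when the gap had to be at least 2 times the range within each level, and 131 among probe sets above the median level. The 7 member probe sets stayed between 6 and 7 when single arrays were left out, the loss being Tsc22d1 without wildtype 1 or 6, which leaves 1 high array. Without wildtype 7 and mutant 8 there were 7, but Mpzl2 1416237_at was lost and Dixdc1 1444395_at gained. They were 4 with the offset (Htatip2, Tsc22d1, 9430014N10Rik and Dixdc1 remained), 11 at a gap of 0.5 and 4 at 1.5. Neighbouring genes with a member's split numbered 0, but 2 without wildtype replicate 2, when Fxyd2 and Mpzl2, which are neighbours, shared one, 1 at a gap of 0.5 (Alg9) and 3 with 20 genes on each side (Dixdc1 and 1810046K07Rik, each in the window of the other, and Atm). Leaving out single arrays kept these between 0 and 2. No member's gap turned its direction under the scalings. The offset and the arrays left out keep the order of the values, so they could not turn it. Calls between genotypes, over all probe sets and over the relatives, were 0 under each limma setting and array left out, with adjusted p of 0.1 or more.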

Other observations

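Other genes with 2 levels and splits not held by the members were read in the same way. Cap1, an actin-binding protein gene on chromosome 4, had gaps of 3.06 and 2.70 on 2 probe sets and was low on wildtype 1 and 2 and mutant 5 on both. Trp53bp1, a DNA repair gene on chromosome 2, had gaps of 2.39 and 2.23 on 2 probe sets and was low on wildtype 2 and 6 and mutant 3 on both. Kcnab1, a potassium channel subunit gene on chromosome 3, was high on wildtype 1 and mutant 3 by 1.24 and 1.05. Klf1, a transcription factor of red cell precursors on chromosome 8, was high on wildtype 4, 6 and 7 and mutant 8 by 1.51. Crisp1, an epididymal gene on chromosome 17, was high on wildtype 1 and mutant 8 by 2.48. The mean of the 4 epididymis genes, of which it is one, was 5.13 and 5.22 there and no higher than 4.55 elsewhere. The other genes of that list did not share this split. Lcn5 was highest on mutant 5 (5.40), Lcn8 on wildtype 4 (5.68) and Adam28 on wildtype 7 (4.34). These genes were chosen after their values had been seen.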
